A study of Homo sapiens with 8 samples.

Results

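The 44 genes described here encode the initiation, elongation and termination factors of cytosolic translation, with the recycling factor ABCE1 and a pair of poly(A)-binding proteins. They were chosen by name as subunits and factors of the translation machinery, by a rule without any measured value, though earlier results of these data were known. All 44 were found among the 20719 gene identifiers listed in the libraries. All 44 also passed the filter on low counts, which left 11097 genes for testing. Their footprints were counted by ribosome profiling, the sequencing of mRNA fragments protected by ribosomes, in G401, a cell line from a rhabdoid tumor of the kidney without the chromatin remodeling subunit SMARCB1. A line with Dox-inducible SMARCB1 and a control line with Dox-inducible GFP were each kept for 12 h in DMSO or in doxycycline (Dox) at 0.1 µg/ml, which gives the groups SMARCB1 Dox, SMARCB1 DMSO, GFP Dox and GFP DMSO with 2 libraries each. Both Dox groups share the drug itself, and both lines share the loss of the endogenous SMARCB1 protein. Each library came from 6 pooled plates, and ribosomes in active translation were taken with the RiboLace kit. The RNA-seq arm of the experiment was not analysed here, so a footprint count reflects the amount of an mRNA together with how much it is translated, and in such bulk libraries fewer cells and less RNA per cell cannot be told apart.

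Translation starts when eIF2 brings the initiator tRNA to the small ribosomal subunit, which carries the scaffold complex eIF3, and the eIF4 factors load it onto a capped mRNA. eIF5 and EIF5B then let the large subunit join, the eEF1 and eEF2 factors drive each step of elongation, and the release factors with ABCE1 free the finished protein and split the ribosome. Tumor cells rely on these factors for growth. Many of the elongation factor mRNAs, with a few initiation factor mRNAs and PABPC1, belong to the terminal oligopyrimidine (TOP) class, whose transcripts start with a C and a run of pyrimidines and whose translation is controlled by mTOR.

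The first bases of the transcripts are shown because they are shared by members of several complexes and were not used to choose them. RefSeq promoter sequences (GRCh38.p14) were matched for 35 of the 44 factors, and the other 9 were EIF2S2, EIF3A, EIF3E, EIF3G, EIF3H, EIF3L, EEF1D, PABPC1 and PABPC4. A C at the annotated first base that opens a run of at least 5 C or T bases, read on the transcript strand at that position alone, stood in 9 of the 35 (25.7%) and in 5.14% of the 27305 genes with a promoter entry. Of the 6 factors with an entry among the 10 listed here as TOP mRNAs, 5 held such a start. Each line below gives 15 bases before and 15 bases from the annotated start, with the pyrimidine run in capitals.
EEF1A1, chr6:73521018-73521047, minus strand: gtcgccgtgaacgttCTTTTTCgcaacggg
EEF1B2, chr2:206159880-206159909, plus strand: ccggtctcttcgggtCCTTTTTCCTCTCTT
EEF2, chr19:3985449-3985478, minus strand: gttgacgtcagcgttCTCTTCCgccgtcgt
EIF4B, chr12:53006441-53006470, plus strand: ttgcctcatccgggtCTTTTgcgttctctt
EIF3F, chr11:7987322-7987351, plus strand: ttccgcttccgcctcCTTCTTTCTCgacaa
EEF1G, chr11:62573877-62573906, minus strand: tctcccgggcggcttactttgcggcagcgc
The last of these, EEF1G, is listed as a TOP mRNA but has no such run at the RefSeq start. Outside the list, the run was present in a further 4 factors, 3 of them subunits of eIF3.
EIF3D, chr22:36529152-36529181, minus strand: gcgcgcgcatgtttcCTCTTTTCCTggttt
EIF3K, chr19:38619173-38619202, plus strand: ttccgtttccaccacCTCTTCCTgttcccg
EIF3M, chr11:32583816-32583845, plus strand: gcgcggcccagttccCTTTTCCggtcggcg
EIF4A2, chr3:186783562-186783591, plus strand: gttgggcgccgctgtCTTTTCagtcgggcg
These letters describe the annotated start only, and the start used in G401 cells was not measured here.

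The libraries held 5924443 to 14000039 counts on genes. SMARCB1, the check on the labels, had 2553 and 1750 counts in SMARCB1 Dox and 0 in each of the other 6 libraries, which allows up to 3 counts there. The line's own markers VIM, KRT8 and KRT18 were abundant in all 8 libraries (at least 781 CPM, counts per 1000000 of the library's gene total), whereas PTPRC of blood cells was at 0, PECAM1 of endothelium had at most 3 counts and EPCAM of epithelium at most 11. GFP Dox replicate 1 stood apart from the rest. Reads with more than 1 alignment, which are not counted, made up 56.4% of its entries and 25.6% to 39.7% in the other 7 libraries, and its gene counts correlated with those of its replicate at Pearson r = 0.956, the lowest of the 4 pairs, a description across genes. Each group has duplicate experiments, and nothing further says how separate the cultures were, so p-values measure only the spread between these libraries.

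The factors were abundant. Together they held 2.04% to 2.52% of all gene counts in a library, and the lowest shares belonged to SMARCB1 DMSO replicate 2 and GFP Dox replicate 1. The median level over the 44 factors was 215 CPM per kilobase of coding sequence, against 17.2 over all genes tested, and 42 of the 44 lay above the latter value. EIF3C and EIF4E were the exceptions.

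Among factors of start-site selection and subunit joining, EIF5, which activates GTP hydrolysis by eIF2, had the highest level with 320.3 ± 23.9 CPM per kilobase (SD over the 8 libraries). EIF6, which keeps the ribosomal subunits apart, had the lowest with 110.3 ± 20.8. In EIF6, 33.3% of the coding sequence overlaps another gene on the same strand, and reads from there are counted for neither gene. Of the eIF2 subunits, EIF2S1, the alpha subunit that is phosphorylated under stress, reached 626 ± 281 and EIF2S2, the beta subunit, 72.2 ± 14.8. All 5 subunits of eIF2B, which reloads eIF2 with GTP, were low, from 30.5 for EIF2B2 to 83.7 for EIF2B1.

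The 13 subunits of eIF3 sit in 1 complex but their footprint levels spanned a 66.8-fold range, from 6.59 CPM per kilobase for EIF3C to 440.3 for EIF3B. In the eIF4 group the range was 37.5-fold, from 14.2 for EIF4E, the cap-binding protein, to 534 for EIF4G2, a relative of the scaffold EIF4G1 that does not bind EIF4E. EIF4A1, the helicase that unwinds the leader, had 515 and EIF4G1 had 184. EEF2, which moves the ribosome along by 1 codon, led the elongation factors with 1239 ± 144, ahead of EIF5A, which helps the ribosome through difficult peptide bonds, with 623 and EEF1A1, which delivers aminoacyl-tRNA, with 425. EEF1D, a subunit of the eEF1 exchange factor, was the lowest of this group with 39.7. Its level is taken over 2139 bases, the union of its annotated coding sequences, and which of them G401 cells use was not examined. The release factors ETF1, which reads stop codons, and GSPT1, its GTPase partner, had 232 and 438, and ABCE1 had 143. PABPC1, which binds the poly(A) tail, had the highest level of all 44 factors with 1835 ± 607, 7.06 times that of its relative PABPC4.

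How much of this spread goes with the sequence of the genes was not tested. The authors counted only reads with 1 alignment, and many translation factors have processed pseudogenes or close copies in the genome. Each coding sequence was therefore cut into windows of 28 bases, and a window was called unique if it occurs in hg38 in no place outside its own gene, with windows across a splice junction counted as unique unless a pseudogene holds them. The 44 factors split into 24 with 80% or more unique windows, 13 with 20% to under 80% and 7 with under 20%. The 7 were EEF1A1 (1.03%), EEF1B2 (12.3%), EIF4B (13.7%), EEF1G (14.0%), EIF4E (16.2%), EIF2S2 (17.5%) and EIF3C (17.8%). EIF3C is a special case, because 19 of its 20 unique stretches run across a splice junction, where the near-identical gene EIF3CL would give the same spliced read, so its share is an upper value. EIF3CL itself had 0 to 0.17 CPM.

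EEF1A1 (ENSG00000156508, chr6:73489308-73525587, minus strand, hg38) is the extreme. Its 14 unique windows lie in a single stretch of 55 bases of its longest coding sequence, shown here because it holds all of them. Not every window within that stretch is unique. The longest coding sequence has 1386 bases and the union of its annotated coding sequences 1520. Bases of the union outside the longest coding sequence were not cut into windows, so unique reads from there are not excluded.
EEF1A1, chr6:73519340-73519394, minus strand: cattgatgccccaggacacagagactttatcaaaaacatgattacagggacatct
EEF1A1 still collected 461 and 1022 CPM in SMARCB1 Dox, 532 and 542 in SMARCB1 DMSO, 275 and 918 in GFP Dox and 561 and 859 in GFP DMSO. It was lowest in GFP Dox replicate 1, and the groups overlapped in both Dox comparisons. Divided by its unique windows alone, the mean level of EEF1A1 would be 46154 CPM per kilobase in place of 425, but that value rests on 14 windows and on an assumed read length, and longer reads can be unique where these windows are not.

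On unique windows the range of levels narrowed in 3 of the 8 factor groups and widened in the other 5. Windows were counted on the longest coding sequence, whereas kilobases of coding sequence are those of the union, so the length changes as well. That length is nearly the whole of the change in eIF2B, whose subunits have 99.8% to 100% unique windows. For EIF2B1 the union has 1146 bases and the longest coding sequence 915. EIF2S1 and EIF2S2 differed 8.67-fold per kilobase of coding sequence and 1.62-fold per kilobase of unique windows. The range within eIF3 went from 66.8-fold to 11.9-fold, and the 8 subunits with 80% or more unique windows differed by 3.08-fold per kilobase of coding sequence, from 143 CPM for EIF3K to 440.3 for EIF3B. The range widened in the eIF4 group (to 44.7-fold), where EIF4A1 went to 1975 and EIF4G3, another scaffold, stayed at 44.2. The termination and recycling factors went from 3.05-fold to 1.59-fold. The range also widened in the start-site and joining factors (2.90-fold to 3.40-fold), in eIF2B (2.74-fold to 3.31-fold), in the poly(A)-binding pair (7.06-fold to 13.7-fold) and in the elongation factors (31.2-fold to 887-fold, with EEF1A1 at the top). Levels per length of the factors with few unique windows are thus lower bounds, whereas a comparison of the same factor between groups uses the same windows, as long as the libraries hold reads of like length, which was not tested.

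**Figure D1:**
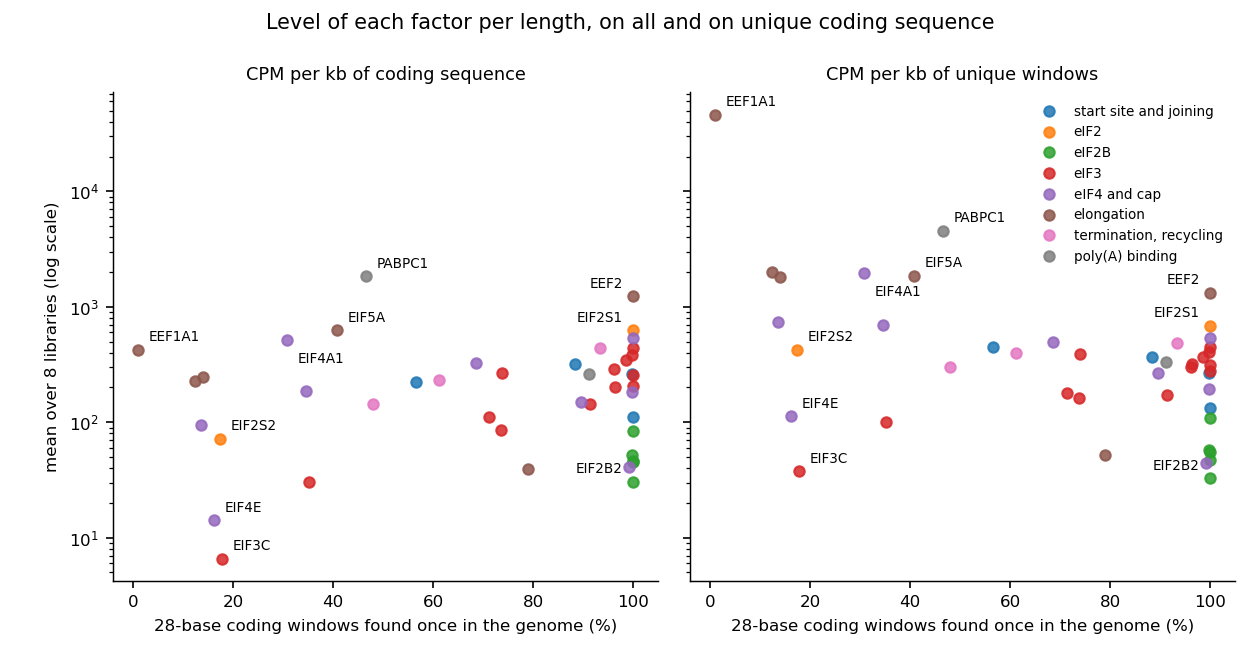
Mean level of each factor over the 8 libraries (CPM per kilobase, log scale) against the percentage of its 28-base coding windows found once in the genome, per kilobase of coding sequence on the left and per kilobase of unique windows on the right, with 1 point per factor and a color per factor group. EIF3C and EIF4E lie lowest on the left, and EEF1A1, with 1.03% unique windows, moves furthest between the panels.

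With re-expression of SMARCB1 for 12 h, no factor passed the threshold. In SMARCB1 Dox against SMARCB1 DMSO, the quasi-likelihood test of edgeR called 0 factors at an adjusted p below 0.05, against 0.018% of all genes tested, and DESeq2 also called 0, against 0.324%. In edgeR, 0 factors were also called without the filter on low counts, beside 0.321% of all genes, and with a block for the replicate number, beside 0.117%. At an unadjusted p below 0.05 there were 0 factors with either tool, where 4.97% of all genes tested lay below it in edgeR and 4.98% in DESeq2. The median log2 fold change was -0.02 over the factors and -0.02 over all genes, with 21 factors above and 23 below 0. For 34 of the 44 factors the 95% interval of the log2 fold change stayed within a 2-fold change in either direction, which held for 54.7% of all genes tested. Counts were also simulated for this comparison, with changed genes drawn from the genes tested and not from the factors alone. In these, edgeR recovered 94 of 100 genes changed 4-fold and 36 of 100 changed 2-fold, with 10 wrong calls. Smaller changes would thus mostly be missed among such genes. The median SE was 0.27 over the factors and 0.31 over all genes, and the rate for the factors alone was not tested.

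The individual factors show how close the groups were. EIF5B (ENSG00000158417, chr2:99337371-99401326, plus strand), the GTPase that joins the large subunit, had 779 and 705 CPM in SMARCB1 Dox and 959 and 1098 in SMARCB1 DMSO. Both Dox values lay under both DMSO values, and its log2 fold change of -0.58 ± 0.30 (SE, edgeR adjusted p = 1) was the lowest of the 44. EEF1G, a subunit of the eEF1 exchange factor, had 287 and 441 CPM in SMARCB1 Dox and 258 and 223 in SMARCB1 DMSO. The Dox values lay above the DMSO values here, with the highest log2 fold change of the 44, 0.49 ± 0.28 (SE, edgeR adjusted p = 1). Leaving out replicate 2 of SMARCB1 Dox gave 0.15, and leaving out replicate 1 gave 0.77. EIF2S2 had the same order, from 56.0 and 64.3 CPM in SMARCB1 DMSO to 82.0 and 98.7 in SMARCB1 Dox, a log2 fold change of 0.47 ± 0.24 (SE, edgeR adjusted p = 1). Its partner EIF2S1 had 527 and 479 CPM in SMARCB1 Dox and 528 and 701 in SMARCB1 DMSO and a log2 fold change of -0.41 ± 0.41 (SE, edgeR adjusted p = 1), which was -0.12 without SMARCB1 DMSO replicate 2, so the estimates for these subunits of eIF2 had opposite signs.

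EIF4A1 had 839 and 890.1 CPM in SMARCB1 Dox and 637 and 618 in SMARCB1 DMSO. The groups did not overlap, and the log2 fold change was 0.36 ± 0.23 (SE, edgeR adjusted p = 1). Nor did those of the GFP line overlap for EIF4A1, where Dox was also the higher. EIF4B, the RNA-binding partner of EIF4A1, had the highest estimate of the eIF4 group, 0.40 ± 0.34 (SE, edgeR adjusted p = 1), which turned to -0.11 without SMARCB1 Dox replicate 2. Its values were 153 and 286 CPM in SMARCB1 Dox and 150.4 and 157 in SMARCB1 DMSO, and replicate 1 of SMARCB1 Dox lay between the controls. Below 0 lay -0.16 ± 0.24 (SE) for EIF4G1, -0.31 ± 0.23 for EIF4E2, a cap-binding repressor, and -0.37 ± 0.34 for EIF4E on only 10.3 to 17.4 CPM. Without SMARCB1 DMSO replicate 2 these were -0.0280, -0.17 and 0.15. Within eIF3, the log2 fold changes ran from -0.45 for EIF3C, at 11.5 to 24.6 CPM in these 4 libraries, to 0.12 for EIF3H, with 5 subunits above and 8 below 0. The value of EIF3C was 0.18 without SMARCB1 DMSO replicate 2. ETF1, GSPT1 and ABCE1 lay between -0.04 and 0.06, the narrowest span of any group with 3 or more factors. For EEF2, at 3363 and 3767 CPM in SMARCB1 Dox and 3638 and 3089 in SMARCB1 DMSO, the 95% interval of the log2 fold change was -0.57 to 0.53.

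The groups did not overlap in 6 factors higher in SMARCB1 Dox (EIF2S2, EIF2B1, EIF3B, EIF3H, EIF4A1 and EEF1G), or 13.6% of the factors, where this was so for 23.9% of all genes tested. In 5 factors they did not overlap with SMARCB1 Dox lower (EIF5B, EIF2S1, EIF2B5, EIF3D and EIF4E2), or 11.4%, where 11.2% of all genes did so. These shares are near or under the background. EIF2B5, the catalytic subunit of eIF2B, shows how small such a separation can be, with 112 and 112 CPM in SMARCB1 Dox and 113 and 112 in SMARCB1 DMSO.

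**Figure D2:**
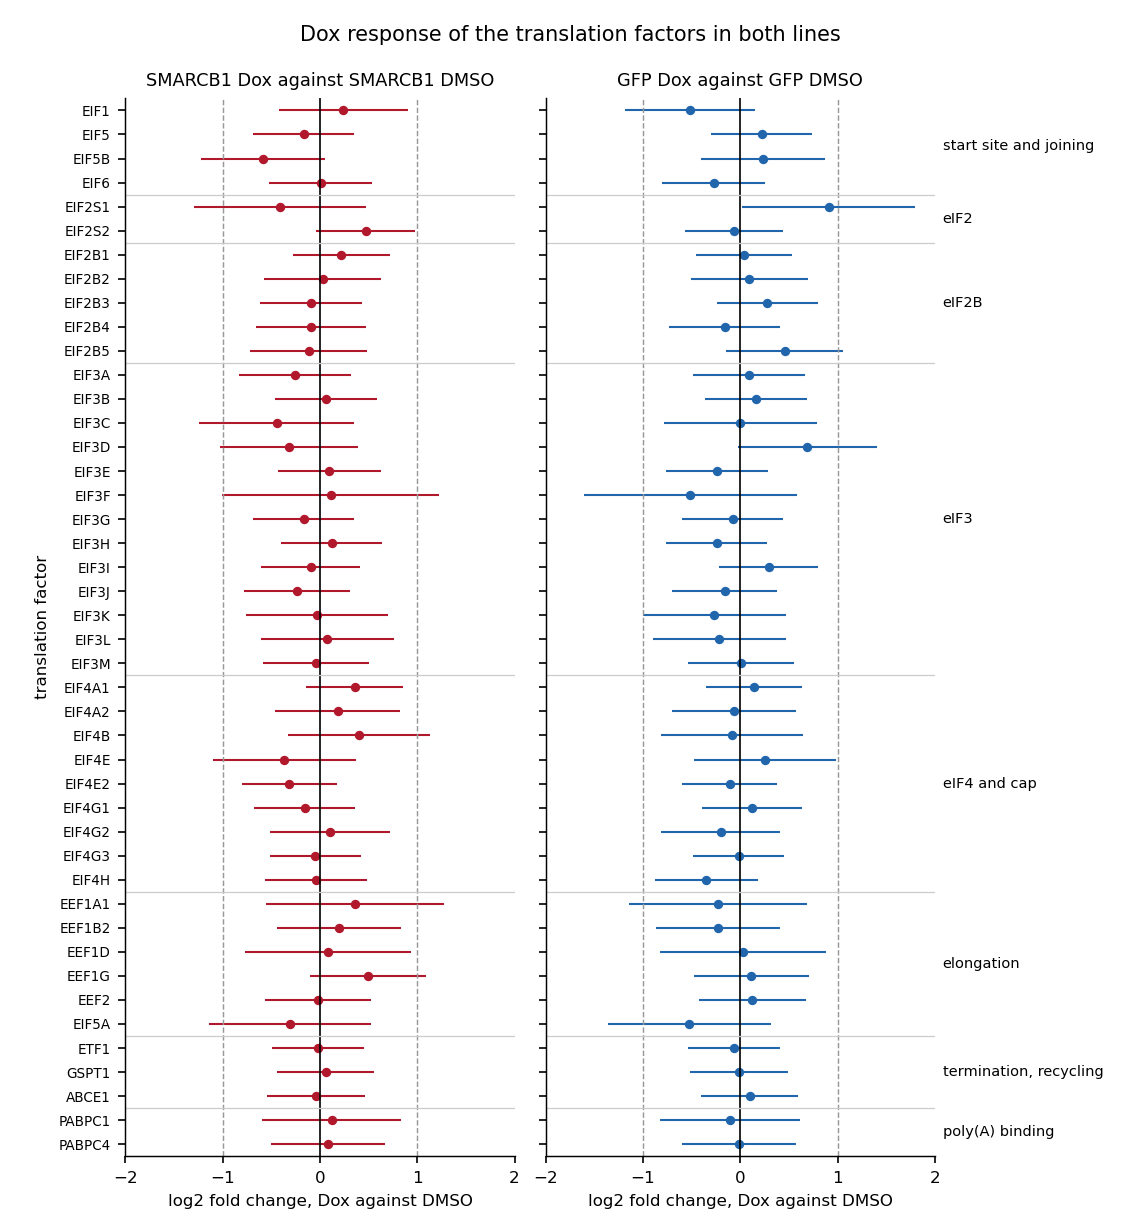
Log2 fold change of each factor for Dox against DMSO in the SMARCB1 line (left) and the GFP line (right), with points for edgeR's estimates, lines for 95% intervals and dashed lines at a 2-fold change in either direction. All intervals on the left span 0, and on the right the interval of EIF2S1 alone lies above it, at an unadjusted level.

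In the control line, Dox with GFP induction also called 0 of the 44 factors with edgeR, and no gene at all among those tested (0.0%). DESeq2 called 0 factors as well (0.0% of all genes), and so did edgeR without the filter on low counts (0.0977%) or with the block (0.0%). At an unadjusted p below 0.05 there was 1 factor with edgeR, EIF2S1, or 2.27% of the factors beside 2.16% of all genes (1.3% in its direction, higher in Dox), and 2 with DESeq2, EIF3D and EIF2S1, or 4.55% beside 2.26%. The median log2 fold change was -0.02 over the factors and 0.02 over all genes tested, and 37 of the 44 intervals stayed within a 2-fold change, against 57.7% of all genes.

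The largest fold changes of this comparison rested on GFP Dox replicate 1. EIF2S1 (ENSG00000134001, chr14:67360328-67386516, plus strand) had 527 and 479 CPM in SMARCB1 Dox, 528 and 701 in SMARCB1 DMSO, 1306 and 457 in GFP Dox and 566 and 483 in GFP DMSO. GFP Dox replicate 1 was far above the other 7 libraries, which lay between 457 and 701 CPM, and its own replicate was the lowest of all 8. The log2 fold change of 0.91 ± 0.41 (SE, edgeR adjusted p = 1) became -0.24 without GFP Dox replicate 1 and 1.54 without GFP Dox replicate 2. EIF3D (ENSG00000100353, chr22:36510855-36529184, minus strand), the eIF3 subunit that can bind a cap itself, had 496 and 454 CPM in SMARCB1 Dox, 540.3 and 557 in SMARCB1 DMSO, 1066 and 522 in GFP Dox and 558 and 530.4 in GFP DMSO. Again a single library was high while the other 7 lay between 454 and 558 CPM, and the log2 fold change of 0.69 ± 0.33 (SE, edgeR adjusted p = 1) became -0.10 without it.

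EIF5A showed the opposite, with 354 and 488 CPM in SMARCB1 Dox, 383 and 575 in SMARCB1 DMSO, 132 and 449 in GFP Dox and 377 and 472 in GFP DMSO. GFP Dox replicate 1 was the lowest library by far, and the log2 fold change of -0.52 ± 0.39 (SE, edgeR adjusted p = 1) became 0.0358 without it. In all, 8 of the 44 factors lay more than 2-fold from the median of the other libraries in GFP Dox replicate 1, with EIF2S1 and EIF3D above it and EIF1, EIF3F, EIF3L, EEF1A1, EEF1D and EIF5A below it, whereas in each of the other 7 libraries at most 1 factor did so, in every case EIF3F. How many of all genes tested lay as far out was not counted. The values are CPM without the TMM factor, which was lowest in GFP Dox replicate 1 (0.872), so its CPM lie below its TMM-scaled values. If GFP Dox replicate 2 is left out instead, edgeR calls 4 factors for GFP Dox against GFP DMSO (EIF3D, EIF5A, EIF2S1 and EIF3F), or 9.09% beside 1.28% of all genes. GFP Dox replicate 1 is then the only library of its group and is assumed to vary like the libraries of the other groups, so these calls describe that library and say nothing of the treatment. The part of its multiply aligned reads in these values was not tested.

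**Figure D3:**
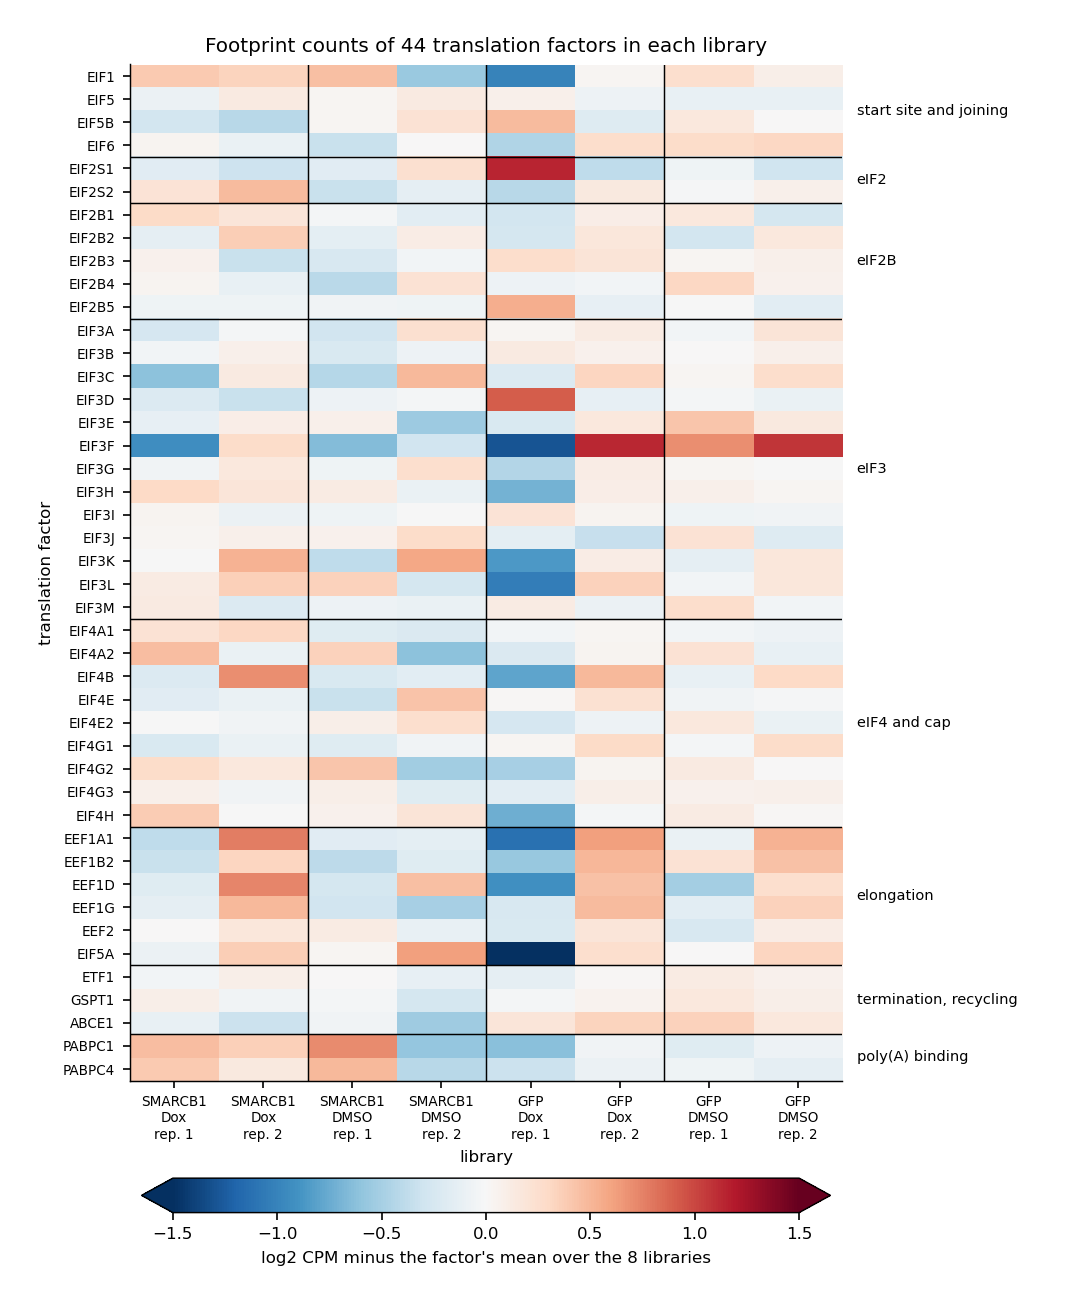
Log2 CPM of each of the 44 factors minus the factor's own mean over the 8 libraries, in rows by factor group and columns by library, with red for higher and blue for lower values. The strongest colors stand in the column of GFP Dox replicate 1 and in the row of EIF3F, and no group of 2 libraries differs from the rest across a whole factor group.

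Other factors of the control line lay closer together. EIF1, which guards the choice of the start codon, had 40.8 and 83.7 CPM in GFP Dox and 97.7 and 86.6 in GFP DMSO, below both control values in both Dox libraries, and a log2 fold change of -0.51 ± 0.31 (SE, edgeR adjusted p = 1), or -0.18 without GFP Dox replicate 1. EIF4H, a cofactor of EIF4A1, had 101 and 165 CPM in GFP Dox and 184 and 171 in GFP DMSO with a log2 fold change of -0.35 ± 0.25 (SE, edgeR adjusted p = 1), or -0.15 without that library. EIF2B5 had 171 and 107 CPM in GFP Dox and 117 and 105 in GFP DMSO and a log2 fold change of 0.46 ± 0.28 (SE, edgeR adjusted p = 1), which turned to -0.09 without GFP Dox replicate 1. The groups did not overlap in 5 factors higher in GFP Dox (EIF5, EIF2B3, EIF3I, EIF4A1 and EIF4E, 11.4%, background 9.16%). Lower without overlap were 6 factors (EIF1, EIF6, EIF2B4, EIF4H, ETF1 and GSPT1, 13.6%, background 16.3%). EIF4A1 was thus separated in both lines, here at 700 and 733 CPM in GFP Dox and 699 and 684 in GFP DMSO.

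The response to Dox was then compared between the lines in 1 model, as the SMARCB1 line's log2 fold change minus that of the GFP line. No factor passed in edgeR (0 of 44, background 0.0%), nor without the filter on low counts (0.105% of all genes) or with the block (0.0%). At an unadjusted p below 0.05 lay 1 factor, EIF2S1, where 3.99% of all genes did (2.16% with a negative difference, as here). DESeq2 called 0 factors (background 0.00901%), with EIF3D and EIF2S1 below an unadjusted p of 0.05, where 4.04% of all genes lay. The difference was -1.32 ± 0.58 (SE, edgeR adjusted p = 0.981) for EIF2S1 and -1.01 ± 0.47 (SE, edgeR adjusted p = 0.981) for EIF3D, and without GFP Dox replicate 1 these differences were -0.16 and -0.21. With GFP Dox replicate 2 left out, which leaves that group a single library, both factors were called (4.55%, background 0.905%). Only 15 of the 44 intervals of the difference stayed within 2-fold (21.4% of all genes). For most factors a 2-fold difference between the lines was thus not excluded at this number of libraries.

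Between the lines themselves many genes were called, but none of these factors in the reported fit. Under DMSO, edgeR called 5.29% of all genes tested between the SMARCB1 line and the GFP line and 0 of the 44 factors, and DESeq2 also called 0 factors, beside 6.7% of all genes. EIF3F was called by edgeR without the filter on low counts, as were 5.26% of all genes, and with the replicate number as a block, as were 6.79%. At an unadjusted p below 0.05 there was 1 factor with edgeR, EIF3F, or 2.27% where 13.9% of all genes lay below it (6.45% lower in the SMARCB1 line, as EIF3F was), and 0 with DESeq2, beside 14.0%. The median log2 fold change was 0.00 over the factors and 0.02 over all genes, and 36 of the 44 intervals stayed within 2-fold, against 48.9% of all genes.

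EIF3F (ENSG00000175390, chr11:7970251-8001862, plus strand), an eIF3 subunit with a fold found in deubiquitinating enzymes, had 16.6 and 38.1 CPM in SMARCB1 Dox, 20.1 and 25.8 in SMARCB1 DMSO, 12.8 and 69.2 in GFP Dox and 51.4 and 66.2 in GFP DMSO. Under DMSO both libraries of the SMARCB1 line lay below both of the GFP line, with a log2 fold change of -1.27 ± 0.52 (SE, edgeR adjusted p = 0.253). Under Dox the groups overlapped, because the 2 GFP Dox libraries were the lowest and the highest of all 8. EIF3F also had the largest difference between replicates in both Dox groups (1.18 and 2.39 on the log2 scale), and 35.2% of its windows, defined above, are unique. The call under DMSO changed with the fit. EIF3F passed with an adjusted p of 0.0234 without GFP Dox replicate 1, where 6.97% of all genes were called. Without GFP Dox replicate 2, EIF3F passed with an adjusted p of 0.0241, where 7.02% of all genes were called. Neither GFP Dox library is among those compared under DMSO.

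ABCE1 (ENSG00000164163, chr4:145098288-145129524, plus strand), the ATPase that splits the ribosome after termination, had 234 and 202 CPM in SMARCB1 Dox, 243 and 175 in SMARCB1 DMSO, 287 and 319 in GFP Dox and 320.2 and 283 in GFP DMSO. All 4 libraries of the SMARCB1 line lay below all 4 of the GFP line, with a log2 fold change of -0.47 ± 0.23 (SE, edgeR adjusted p = 0.415) under DMSO and -0.61 ± 0.24 (SE, edgeR adjusted p = 0.168) under Dox. Under DMSO it was -0.30 without SMARCB1 DMSO replicate 2 and -0.66 without SMARCB1 DMSO replicate 1. EIF4G1 (ENSG00000114867, chr3:184314495-184335358, plus strand), the scaffold between EIF4E and eIF3, was the other factor with this pattern, at 789.6 and 860.0 CPM in SMARCB1 Dox, 812 and 893 in SMARCB1 DMSO, 946 and 1124 in GFP Dox and 904 and 1119 in GFP DMSO. Its log2 fold changes were -0.17 ± 0.24 (SE, edgeR adjusted p = 0.858) and -0.45 ± 0.24 (SE, edgeR adjusted p = 0.339), the former -0.0252 without GFP DMSO replicate 2 and -0.31 without GFP DMSO replicate 1. This pair is 4.55% of the factors, where 8.03% of all genes tested were lower in all libraries of the SMARCB1 line, and 0 factors were higher in all of them, where 8.84% of all genes were.

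**Figure D4:**
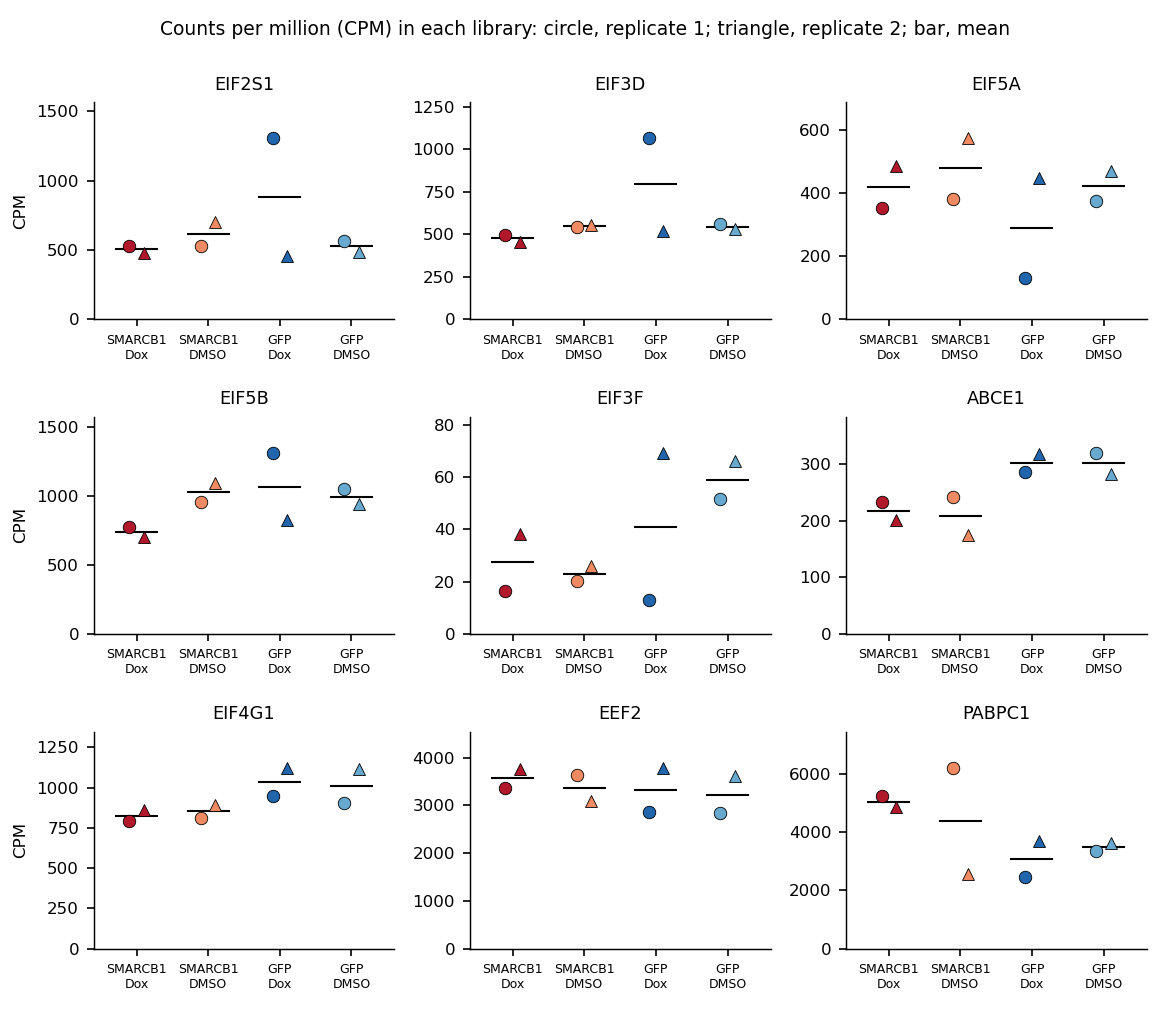
CPM in each library for 9 factors, with a circle for replicate 1, a triangle for replicate 2 and a bar for the mean of the group. GFP Dox replicate 1 stands apart for EIF2S1, EIF3D and EIF5A, and for ABCE1 and EIF4G1 all SMARCB1-line libraries lie below all GFP-line libraries.

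Other factors between the lines under DMSO lay in both directions. EEF1B2, the nucleotide exchange subunit of eEF1, had 118 and 137 CPM in SMARCB1 DMSO and 181 and 209.9 in GFP DMSO, a log2 fold change of -0.54 ± 0.30 (SE, edgeR adjusted p = 0.482) with no overlap. EIF3E had 183 and 119.9 CPM in SMARCB1 DMSO and 234 and 194 in GFP DMSO, with a log2 fold change of -0.44 ± 0.25 (SE, edgeR adjusted p = 0.491), which was -0.21 without SMARCB1 DMSO replicate 2 and -0.71 without SMARCB1 DMSO replicate 1. PABPC1 had 5246 and 4879 CPM in SMARCB1 Dox, 6226 and 2564 in SMARCB1 DMSO, 2477 and 3689 in GFP Dox and 3362 and 3620 in GFP DMSO. SMARCB1 DMSO replicate 2 was far below the other libraries of its line, and the log2 fold change of PABPC1 under DMSO, 0.38 ± 0.34 (SE, edgeR adjusted p = 0.737), became -0.32 without SMARCB1 DMSO replicate 1. PABPC4 followed the same order within that line, with 759 and 640.2 CPM in SMARCB1 Dox and 809 and 434 in SMARCB1 DMSO. The groups did not overlap in 16 factors lower in the SMARCB1 line under DMSO (36.4%, background 26.9%) and in 1 factor higher, EIF5 (2.27%, background 18.5%).

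Under Dox, edgeR called 6.55% of all genes between the lines and 0 of the 44 factors, and DESeq2 called 0, beside 8.75%. With the block the count was 0 as well (8.31% of all genes), and without the filter on low counts it was 2, EIF3D and EIF2S1 (4.55%, background 7.01%). At an unadjusted p below 0.05 there were 4 factors with edgeR, EIF5B, EIF2S1, EIF3D and ABCE1, or 9.09% beside 18.7% of all genes, all lower in the SMARCB1 line, as were 9.6% of all genes, and 6 with DESeq2 (13.6%, background 19.0%). For 28 of the 44 factors the 95% interval stayed within 2-fold, against 42.7% of all genes. The comparison holds GFP Dox replicate 1. The log2 fold change of -0.70 ± 0.30 (SE, edgeR adjusted p = 0.220) for EIF5B became -0.15 without it, that of EIF3D went from -0.92 to -0.13 and that of EIF2S1 from -1.01 to 0.14. ABCE1 stayed between -0.72 and -0.50 with each library left out in turn. Without GFP Dox replicate 2, 7 factors were called (15.9%, background 14.3%), with GFP Dox replicate 1 as the only library of its group. The groups did not overlap in 11 factors higher in the SMARCB1 line (25.0%, background 27.9%) and 7 lower (15.9%, background 17.2%). The comparisons between lines share no library with each other, but each shares its libraries with a Dox comparison.

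Replicates of the same group also differed. More than 2-fold differences were seen in 10 factors in GFP Dox, in EEF1A1 and EIF3F in SMARCB1 Dox, in EIF1 and PABPC1 in SMARCB1 DMSO and in 0 factors in GFP DMSO. How many of all genes tested differed as much was not counted. Of the 10 factors in GFP Dox, 3 have under 20% unique windows (EIF4B, EEF1A1 and EEF1B2), 5 have 20% to under 80%, and EIF2S1 and EIF3D, with 80% or more, were higher in replicate 1. The direction of the differences was shared by the factors with few unique windows. Of the 7 factors with under 20% unique windows, 7 were higher in replicate 2 than in replicate 1 of SMARCB1 Dox, 6 in SMARCB1 DMSO, 7 in GFP Dox and 7 in GFP DMSO, with median log2 differences of 0.66, 0.20, 0.71 and 0.23. The 24 factors with 80% or more unique windows had medians of -0.12, 0.12, 0.14 and -0.04 in the same order. Replicate numbers name the libraries as the labels do. EEF1A1 differed by 1.15, 0.03, 1.74 and 0.62 on the log2 scale, and EIF4B by 0.90, 0.07, 1.26 and 0.42. EEF2, with 100% unique windows, differed by 0.16, -0.24, 0.40 and 0.35.

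All genes tested were read in the same way. Over the 103 genes tested with under 20% unique windows the medians were 0.45, 0.13, 1.03 and 0.21, and over the 9900 genes with 80% or more they were 0.00, -0.11, 0.28 and 0.03. The share of multiply aligned reads was higher in replicate 2 than in replicate 1 in SMARCB1 Dox (39.7% and 26.6%), SMARCB1 DMSO (29.4% and 28.7%) and GFP DMSO (29.3% and 25.6%), and lower in GFP Dox (30.5% and 56.4%). Its part in these differences was not tested, nor was that of read length. The TOP list overlaps this set, with EEF1A1, EEF1B2, EEF1G and EIF4B in both, and its 10 members had median differences of 0.64, -0.09, 0.93 and 0.35, against -0.06, 0.13, 0.20 and -0.04 for the other 34 factors. TOP membership and low uniqueness cannot be told apart here with so few genes.

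**Figure D5:**
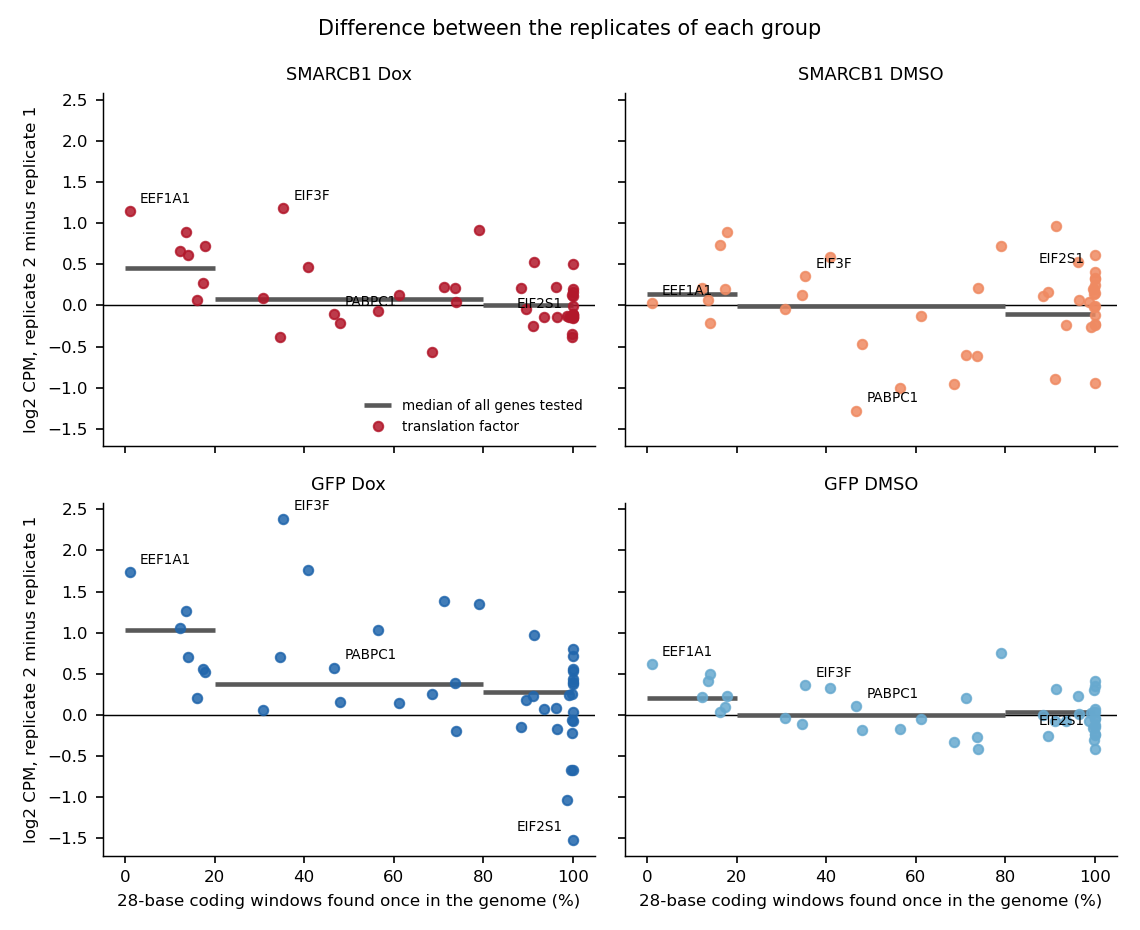
Log2 CPM of replicate 2 minus replicate 1 (0.5 CPM added to each) against the percentage of unique 28-base coding windows, with 1 panel per group and 1 point per factor, and gray bars for the median of all genes tested within the classes under 20%, 20% to under 80% and 80% or more. Factors at the left of each panel lie mostly above 0, most clearly for SMARCB1 Dox and GFP Dox.

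Related genes of the translation pathway were read from lists in the same fits. Over all genes tested, edgeR called 0.018% for SMARCB1 Dox, 0.0% for GFP Dox and 0.0% for the difference between the lines. Between the lines it called 5.29% under DMSO and 6.55% under Dox. In lists this small, a count of 0 is near such shares. The 10 TOP factors had median log2 fold changes of 0.12 in SMARCB1 Dox against SMARCB1 DMSO and -0.17 in GFP Dox against GFP DMSO (0.19 without GFP Dox replicate 1), with 0 called in any comparison. Of 14 other subunits and paralogs, such as EIF2S3, the gamma subunit of eIF2, 12 were tested and 0 passed in any comparison, while EIF3CL and EIF4E3 were too low to test. EIF5A2 was higher in all libraries of the SMARCB1 line than in all of the GFP line. That is 8.33% of the 12, where 8.84% of all genes were. EIF2S3 had 265 and 269 CPM in SMARCB1 Dox, 248 and 217 in SMARCB1 DMSO, 179 and 232 in GFP Dox and 220.0 and 223 in GFP DMSO, above EIF2S2 in every library as a count and not per length. The 24 regulators and accessory factors had median log2 fold changes of 0.09 and 0.01 (-0.0447 without GFP Dox replicate 1) for Dox in the SMARCB1 and the GFP line.

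The regulators held the 1 call of these lists, under DMSO, or 4.17% of the 24 where 5.29% of all genes were called. PDCD4 and EEF2K, 8.33% of the 24, were lower in all libraries of the SMARCB1 line, where 8.03% of all genes were, so these shares are near or under the background. PDCD4, which binds EIF4A1 and keeps it from the cap complex, had 548 and 591 CPM in SMARCB1 Dox, 441 and 583 in SMARCB1 DMSO, 784 and 982 in GFP Dox and 1068 and 1033 in GFP DMSO. Its log2 fold change was -0.96 ± 0.25 (SE, edgeR adjusted p = 0.0373) under DMSO and -0.75 ± 0.25 (SE, edgeR adjusted p = 0.0975) under Dox. EIF4A1, its target, had log2 fold changes of -0.07 ± 0.23 (SE) and 0.14 ± 0.23 in the same comparisons (0.24 under Dox without GFP Dox replicate 1). EEF2K, the kinase that inhibits EEF2, had 19.9 and 15.7 CPM in SMARCB1 Dox, 15.7 and 18.5 in SMARCB1 DMSO, 23.5 and 31.7 in GFP Dox and 25.6 and 31.7 in GFP DMSO, and was not called (adjusted p = 0.285 under DMSO and 0.161 under Dox in edgeR). MKNK2, a kinase of EIF4E, had 183 and 182 CPM in SMARCB1 Dox, 161 and 106 in SMARCB1 DMSO, 79.9 and 117 in GFP Dox and 93.3 and 104 in GFP DMSO, higher in the SMARCB1 line under each treatment without overlap and not called either (edgeR adjusted p = 0.403 and 0.0763).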

How the data were processed

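Ribosome profiling was analysed for 8 libraries of G401 cells in 4 groups. The authors aligned the reads with STAR to hg38 and counted them with HTSeq (intersection-strict) per gene over the coding exons of GENCODE 42, and the deposited values are these raw counts without normalization. Versions of STAR and HTSeq, the strand option and the read lengths are not given in the sources used here. The 5 summary entries at the end of each list (reads without a feature, ambiguous, multiply aligned and others) were left out of library totals and tests. Symbols were taken from GENCODE 44, and 311 of the 20719 identifiers had none.

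Counts were normalized with TMM, filtered with filterByExpr and tested with the quasi-likelihood F test of edgeR 4.0.16 in R 4.3.3, in a single fit of all 8 libraries, over 11097 genes with Benjamini-Hochberg adjustment. A gene was called at an adjusted p below 0.05. CPM are counts per 1000000 of the library's gene total, and levels are CPM per kilobase of the union of coding sequences. Groups do not overlap where every library of one lies beyond every library of the other in CPM. DESeq2 1.42.0, used in the study, was an alternative, with RLE size factors, library size alone, a block by replicate number, no filter, a minimum of 10 counts in each library, a fit of the compared groups alone and each library left out in turn. The tests were tested on simulated data. Named factors are those called, those with the smallest p per direction (3 in each Dox comparison, 5 between the lines under DMSO), the highest and lowest level of each factor group and the best-known factor of each step. The factors singled out for a library that stands apart or for all libraries of a line were chosen after their values were seen. The members and lists were chosen with earlier results of these data known.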

Additional observations from a re-analysis of the deposited data

Results flagged for a closer look

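Reads with more than 1 alignment, which enter no comparison, made up 56.4% of the entries of GFP Dox replicate 1 and 30.5% of those of GFP Dox replicate 2. Both lie above the GFP DMSO libraries, the controls without induction (25.6% and 29.3%), which is why they are given here. SMARCB1 Dox had 26.6% and 39.7% and overlapped SMARCB1 DMSO (28.7% and 29.4%). The factors with few unique coding windows, such as EEF1A1 and EIF4B, lose the most reads to this class by construction.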

How the results depend on the processing

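No factor was called in the reported fit, and the counts of calls moved in few settings. Without a filter on low counts, edgeR called 1 factor between the lines under DMSO (EIF3F, beside 5.26% of all genes) and 2 under Dox (EIF3D and EIF2S1, beside 7.01%). With only the groups compared it called 1 under DMSO (EIF3F), and the share of all genes called in that fit was not counted. The replicate numbers are not known to pair the libraries: the labels name no shared batch, and deviations from the group means correlated at r = 0.045 to 0.280 over the 6 pairs of groups. With the replicate number as a block, 1 factor was called between the lines under DMSO (EIF3F, adjusted p = 0.0418 in edgeR), and the block changed no other call of a factor. With each library left out in turn, 0 factors were called for SMARCB1 Dox against SMARCB1 DMSO, 0 to 4 for GFP Dox against GFP DMSO, 0 to 2 for the difference between the lines, 0 to 1 between the lines under DMSO and 0 to 7 under Dox, and the counts of 4, 2 and 7 arose without GFP Dox replicate 2 alone, a fit in which 1.28%, 0.905% and 14.3% of all genes were called and GFP Dox has a single library, assumed to vary like the other groups. The 1 factor under DMSO was EIF3F, without either GFP Dox library (6.97% and 7.02% of all genes).

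Not all factors were followed with each library left out. EIF4B and EIF4E, for example, also turned in the SMARCB1 Dox comparison, as given above. Among those followed, log2 fold changes that turned when a library was left out ranged from -0.86 to 0.18 for EIF3C in the SMARCB1 Dox comparison. In the GFP Dox comparison they ranged from -0.0903 to 0.85 for EIF2B5, -0.24 to 1.54 for EIF2S1, -0.10 to 1.19 for EIF3D and -1.46 to 0.0358 for EIF5A. Between the lines they ranged from -0.32 to 0.85 for PABPC1 and -0.19 to 0.59 for PABPC4 under DMSO, and from -1.64 to 0.14 for EIF2S1 and -1.36 to 0.80 for EIF3F under Dox. Of 201 values of named factors under the other settings, 196 kept direction and side of the threshold and 5 passed it newly. Library size without further scaling put the all-gene median of the log2 fold change at 0.09 for SMARCB1 Dox, 0.11 between the lines under Dox and 0.16 in the difference between the lines, against -0.02, -0.01 and -0.03 as reported. The factors' median in that difference was then 0.26, or 0.10 above all genes. The median level was 239 CPM per kilobase on the longest coding sequence and 325 on unique windows, against 215 as reported. Over all genes, the calls for SMARCB1 Dox were 2 in edgeR, 36 in DESeq2, 46 without a filter and 13 with the block, for GFP Dox 0, 0, 14 and 0, and for the difference 0, 1, 15 and 0. With 2 libraries a group, most 2-fold changes in the simulated counts went undetected, and read length and strand remain unknown.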

Other observations

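The mitochondrial translation factors, which serve the separate ribosomes of that organelle, were read from the same fits. All 10 were tested and 0 were called in any of the 5 comparisons by edgeR, with 0 below an unadjusted p of 0.05 as well. Over all genes tested, edgeR called 0.018% for SMARCB1 Dox, 0.0% for GFP Dox and 0.0% for the difference between the lines. Between the lines it called 5.29% under DMSO and 6.55% under Dox. Below an unadjusted p of 0.05 lay 4.97%, 2.16%, 3.99%, 13.9% and 18.7% in the same order. With 10 genes, a count of 0 says little beside such shares. The median log2 fold change of the 10 mitochondrial factors for Dox was -0.09 with SMARCB1 induction and 0.05 with GFP induction, or -0.0209 without GFP Dox replicate 1. TUFM, the elongation factor that delivers aminoacyl-tRNA there, had 198 and 227 CPM in SMARCB1 Dox, 193 and 240.4 in SMARCB1 DMSO, 209.7 and 259 in GFP Dox and 211 and 257 in GFP DMSO, and GFM1, its translocase, had 194 and 197 CPM in SMARCB1 Dox, 222 and 200.1 in SMARCB1 DMSO, 226 and 259.9 in GFP Dox and 278 and 260.2 in GFP DMSO. The groups of TUFM overlapped, and GFM1 was lower in every library of the SMARCB1 line than in every library of the GFP line (1 of the 10, or 10.0%, where 8.03% of all genes were), with edgeR adjusted p = 0.682 under DMSO and 0.297 under Dox. GFM1 was singled out after its values were seen.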
